A study of Homo sapiens with 16 samples.

Results

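Spliceosomal small nuclear RNA (snRNA) genes were followed in IMR32 cells, a human neuroblastoma line with amplified MYCN, after knockdown of TPX2. The members were the rows of the count table of gene type snRNA whose symbols begin with RNU1, RNU2, RNU4, RNU5, RNU6, RNU7, RNU11, RNU12 or RNVU1, which includes the U4atac and U6atac genes. This gave 1827 of the 58787 genes in the table. Of these, 49 were functional copies and 1778 were pseudogene copies, taken as the symbols ending in P. A further 73 rows of type snRNA with other symbols lay outside the rule.

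The study transfected IMR32 cells with 1 of 3 small interfering RNAs against TPX2, named si45, si46 and si47, or with a non-targeting control, siNTC. The column names give a time of 48 h. Each of the 4 groups had 4 replicates, and all 16 libraries came from the same line, with no other treatment named. The labels do not say whether replicates were separate cultures, so p-values measure only the spread between these samples. The title places TPX2, a spindle assembly protein, downstream of a translational program that depends on eIF4A.

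Spliceosomal snRNAs are the RNA core of the particles that remove introns. U1 pairs with the start of the intron and U2 with the branch site, while U4, U5 and U6 join as 1 complex in which U4 holds U6 inactive until the spliceosome is activated. U11, U12, U4atac and U6atac do the corresponding work for the rare minor class of introns, and U7 instead guides the cutting of histone mRNA ends. RNA polymerase II makes most of them, the Integrator complex cuts their ends, and the Sm proteins form a ring on them. U6 and U6atac differ in that RNA polymerase III makes them and LSm proteins bind their run of uridines. The genome holds many pseudogene copies of each family.

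The libraries were made with a kit that primes on stretches of adenosine and reads the 3' end. Mature snRNAs carry no long poly(A) tail. The values are therefore the reads this kit obtained from each locus and not the amount of mature snRNA, and they are given as counts per 1000000 reads (CPM) after TMM scaling, a correction for library composition. Total counts ran from 5318159 to 7864343 per library, and members held 0.236% to 0.426% of them. In bulk RNA, a change in the number of cells of a type and a change in RNA per cell cannot be told apart. TPX2 itself fell under each siRNA. Its level was 327 ± 27.1 CPM (SD, n = 4) in siNTC, 91.6 ± 19.8 with si45, 81.7 ± 14.3 with si46 and 71.5 ± 3.38 with si47, and each siRNA group lay wholly below siNTC (two-sided exact permutation p = 0.0286 for each, the smallest that 4 against 4 libraries allow). The 9 adrenergic neuroblastoma markers summed here were each above 1 CPM in every library, and among markers of other cells HBB was at 0, S100B at or below 0.169 CPM and COL1A1 at 18.1 to 64.6 CPM. The adrenergic markers summed to 4620 to 5090 CPM in siNTC, 4870 to 5960 with si45, 5440 to 6340 with si46 and 5570 to 6510 with si47, and their part in the results was not tested.

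The sequences that separate the members described below are given from GENCODE v29 on GRCh38, 5′ to 3′, as DNA letters. The reference U1 gene RNU1-1 (chr1:16514122-16514285, minus strand) is shown with its Sm site in capitals. RNVU1-28 (chr1:144560666-144560829, minus strand), RNVU1-31 (chr1:145465617-145465780, minus strand) and RNVU1-7 (chr1:148038753-148038916, minus strand) are U1 variant genes that rose, with the bases that differ from RNU1-1 in capitals. RNVU1-25 (chr1:146409903-146410062, plus strand) is a more distant U1 variant that was not called for the mean of the 3 siRNAs, again with its Sm site in capitals.
RNU1-1: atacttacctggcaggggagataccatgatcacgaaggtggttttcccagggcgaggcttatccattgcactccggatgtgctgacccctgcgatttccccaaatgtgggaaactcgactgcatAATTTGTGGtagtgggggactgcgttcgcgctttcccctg
RNVU1-28: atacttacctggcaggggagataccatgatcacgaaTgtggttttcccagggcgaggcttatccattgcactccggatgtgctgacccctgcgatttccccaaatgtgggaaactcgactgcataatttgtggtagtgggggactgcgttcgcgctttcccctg
RNVU1-31: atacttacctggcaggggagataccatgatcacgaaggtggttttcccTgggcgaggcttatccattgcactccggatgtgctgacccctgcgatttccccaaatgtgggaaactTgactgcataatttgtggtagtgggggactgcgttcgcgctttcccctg
RNVU1-7: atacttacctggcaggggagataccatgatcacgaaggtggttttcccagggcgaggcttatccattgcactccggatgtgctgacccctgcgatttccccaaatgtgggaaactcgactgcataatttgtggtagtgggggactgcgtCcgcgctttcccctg
RNVU1-25: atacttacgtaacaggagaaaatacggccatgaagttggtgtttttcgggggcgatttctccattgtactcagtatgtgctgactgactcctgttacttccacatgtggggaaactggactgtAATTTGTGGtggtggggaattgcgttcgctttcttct

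Counted from the first base, RNVU1-28 differs from RNU1-1 by G37T, RNVU1-7 by T150C, and RNVU1-31 by A49T and C116T. The 2 functional U4 genes lie near each other on chromosome 12. RNU4-2 (chr12:120291763-120291903, minus strand) is shown with its Sm site in capitals, and RNU4-1 (chr12:120293097-120293237, minus strand) with the 4 bases that differ from it, which are T37C, A88G, A99C and T113C. RNU4-82P (chr9:124887410-124887549, minus strand, in an intron of GOLGA1) is a U4 pseudogene that rose with them, with its run of adenosines in capitals.
RNU4-2: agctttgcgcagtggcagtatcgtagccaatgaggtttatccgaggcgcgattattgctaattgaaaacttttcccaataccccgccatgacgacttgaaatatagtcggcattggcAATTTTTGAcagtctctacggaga
RNU4-1: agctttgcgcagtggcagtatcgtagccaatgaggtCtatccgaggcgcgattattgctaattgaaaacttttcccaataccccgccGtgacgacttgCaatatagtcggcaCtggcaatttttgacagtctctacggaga
RNU4-82P: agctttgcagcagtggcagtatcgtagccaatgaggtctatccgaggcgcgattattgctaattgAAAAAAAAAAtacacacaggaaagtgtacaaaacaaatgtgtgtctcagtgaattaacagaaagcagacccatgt

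RNU4-82P shares an unbroken run of 60 bases with RNU4-1, which is base 10 to base 69 of the pseudogene. The pair of minor spliceosome genes behaved differently and is shown for contrast. RNU6ATAC (chr9:134164439-134164564, minus strand) ends in a run of T, in capitals, and RNU4ATAC (chr2:121530881-121531007, plus strand, in an intron of CLASP1-AS1) ends in a run of A, in capitals.
RNU6ATAC: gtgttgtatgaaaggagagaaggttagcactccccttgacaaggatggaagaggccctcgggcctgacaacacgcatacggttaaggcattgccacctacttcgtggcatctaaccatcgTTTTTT
RNU4ATAC: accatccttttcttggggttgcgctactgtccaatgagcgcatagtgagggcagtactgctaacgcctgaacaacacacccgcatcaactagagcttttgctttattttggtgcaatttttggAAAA

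Reads were unevenly spread over the members. In all, 547 members had at least 1 read and 1280 had none in any library. Of 314169 member reads, RNU4ATAC took 230529, or 73.4%, and the U1 family took 12.8%, the U6 family 7.57%, the U2 family 1.81%, the U4 family 1.43%, the U5 family 1.23%, the U6atac family 0.938% and the U7 family 0.860%. The only functional genes of U2, U7, U11 and U12 in the rule, RNU2-1, RNU7-1, RNU11 and RNU12, had no read in any library, where a count of 0 allows 0.381 to 0.564 CPM (3 counts of the library total, counting error only). RNU1-1, RNU1-2, RNU1-3 and RNU1-4, which share 1 sequence with 4 other members, had 12, 12, 2 and 1 reads over all 16 libraries. How the submitters counted reads that match several copies is not given in the sources used here, so low counts of identical copies and the split between near-identical ones are uncertain.

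The test across all 14193 genes kept 68 members, 19 functional and 49 pseudogene copies, which held 97.4% of member reads. The remaining 1759 members had too few reads to test, and 479 of them had at least 1. A filter on low counts admits genes that are low in siNTC and high after knockdown. In siNTC alone, 33 of the 68 tested members reached the filter level of 1.68 CPM in all 4 libraries, and 6 of these 33 were called higher for the mean of the 3 siRNAs. The 6 were RNU4-2, RNU6ATAC, RNU5B-1, RNVU1-28, RNVU1-31 and RNU6-11P.

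For the mean of the 3 siRNAs against siNTC, 19 members rose and 0 fell (edgeR quasi-likelihood test, Benjamini-Hochberg adjusted p under 0.05 over all genes). Among all genes tested, 3.61% were called higher and 3.53% lower in that comparison. The 19 were 10 of the 19 functional and 9 of the 49 pseudogene copies tested, out of 49 and 1778 in all. At an unadjusted p under 0.05 there were 26 members, and the share of all genes at that level is not given here. The median log2 fold change of the 68 tested members was 0.20 beside -0.0011 over all genes. With si45, 8 members rose and 0 fell, against 1.01% of all genes higher and 0.324% lower. With si46, 18 rose and 0 fell, against 2.14% higher and 1.25% lower. With si47, 19 rose and 1 fell, against 4.91% higher and 4.83% lower. The 3 siRNAs share the siNTC libraries, and 8 members rose under all 3. These are the 8 that rose with si45. The share of all genes called higher under all 3 is not given here and cannot exceed the 1.01% of si45.

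The si45 count depended on single libraries. It was 2 without si45 replicate 1 or si45 replicate 2, 3 without siNTC replicate 2, and 4 without siNTC replicate 1, 3 or 4. In these fits 97 to 144 of all genes were called with si45, beside 190 with every library. The si46 count was 10 without si46 replicate 1 or replicate 2.

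**Figure D1:**
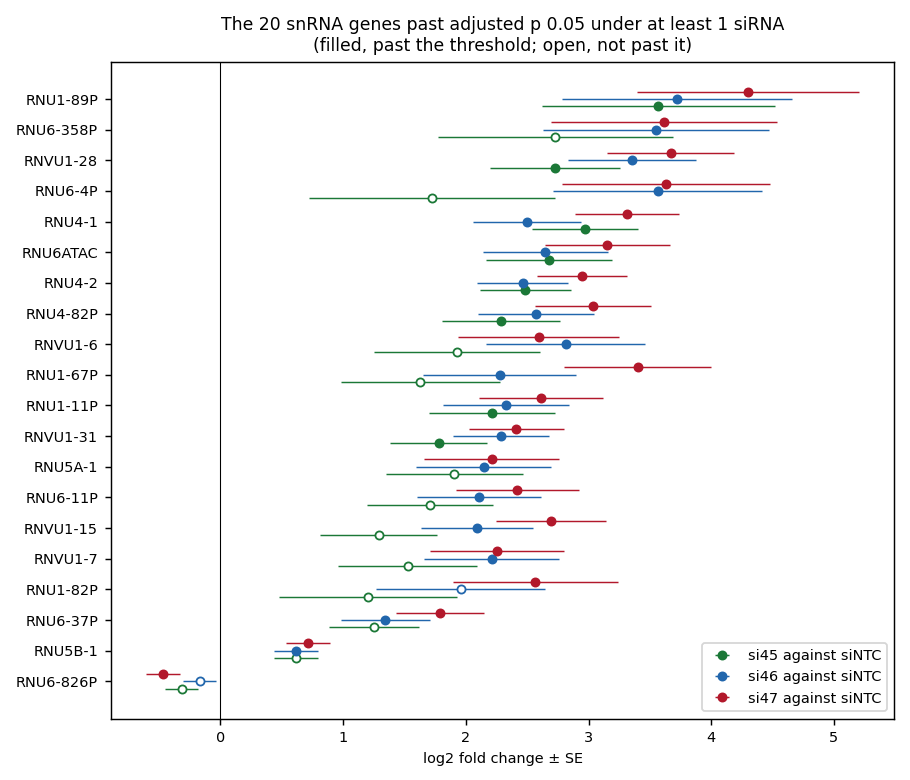
log2 fold change ± SE (x axis) of the 20 snRNA genes past an adjusted p of 0.05 under at least 1 siRNA (y axis), for si45, si46 and si47 against the same 4 siNTC libraries, with filled points past the threshold. All values but those of RNU6-826P lie above 0, and RNU5B-1 has the smallest of the rises.

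The U4 family, whose RNA masks U6 before activation, gave the lowest p-values. RNU4-2 had 4.33, 4.22, 1.89 and 2.60 CPM in the siNTC libraries (replicates 1 to 4). It had 22.1, 27.8, 12.3 and 11.7 CPM with si45, 24.4, 22.6, 10.6 and 15.5 with si46, and 37.9, 21.4, 23.5 and 19.6 with si47. All 12 knockdown libraries lay above all 4 controls, and the group means were 5.67-fold, 5.60-fold and 7.85-fold the control mean. The log2 fold change for the mean of the 3 siRNAs was 2.63 (SE 0.33, edgeR adjusted p = 4.31e-05).

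RNU4-1, the second functional U4 gene, was lower in every group. Its siNTC libraries had 0.962, 0.782, 1.14 and 1.21 CPM, from 5 to 7 reads each. Its knockdown libraries had 7.76, 14.4, 6.24 and 3.78 CPM with si45, 6.71, 8.0, 4.88 and 3.73 with si46, and 17.8, 9.25, 7.39 and 6.60 with si47. Controls and knockdown libraries did not overlap, with a log2 fold change of 2.93 (SE 0.39, edgeR adjusted p = 5.34e-06).

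The pseudogene RNU4-82P had 3.21, 3.60, 0.567 and 4.51 CPM in siNTC. With si45 it had 17.5, 21.1, 10.9 and 9.08 CPM, with si46 20.8, 26.4, 13.6 and 11.2, and with si47 39.5, 23.9, 21.8 and 14.2. The groups again did not overlap (log2 fold change 2.63, SE 0.43, edgeR adjusted p = 0.00147). Its host gene GOLGA1 had a log2 fold change of 0.03 (SE 0.15, edgeR adjusted p = 0.935). The other 2 tested U4 pseudogenes, RNU4-78P and RNU4-40P, lie in introns of TRAK1 and PHF20 and had log2 fold changes of -0.60 (SE 0.45) and -0.35, with edgeR adjusted p = 0.495 and 0.620.

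RNU6ATAC, the minor spliceosome counterpart of U6, rose under each siRNA. Its siNTC libraries had 6.57, 3.91, 2.08 and 4.51 CPM. Its knockdown libraries had 40.2, 35.9, 20.5 and 13.6 CPM with si45, 41.4, 22.4, 18.4 and 25.7 with si46, and 64.9, 42.1, 23.5 and 23.7 with si47. The lowest knockdown library was above the highest control, and on the log2 scale it rose by 2.68 with si45, 2.65 with si46 and 3.15 with si47, with an SE of 0.51 in each (edgeR adjusted p = 0.0197, 0.0134 and 0.00160).

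RNU4ATAC, its partner in the minor spliceosome and the member with the most reads, overlapped between groups. It had 1882, 2651, 2789 and 2669 CPM in siNTC, 1488, 2286, 2615 and 2249 with si45, 1749, 3271, 2996 and 2501 with si46, and 2265, 2080, 3367 and 1907 with si47. Of the 12 knockdown libraries, 3 were above all controls and 2 below. The log2 fold change for the mean of the 3 siRNAs was -0.06 (SE 0.19, edgeR adjusted p = 0.899). The single tested U6atac pseudogene, RNU6ATAC27P in an intron of PHACTR4, had -0.32 (edgeR adjusted p = 0.527). None of the 17 U4atac pseudogenes had enough reads to test.

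**Figure D2:**
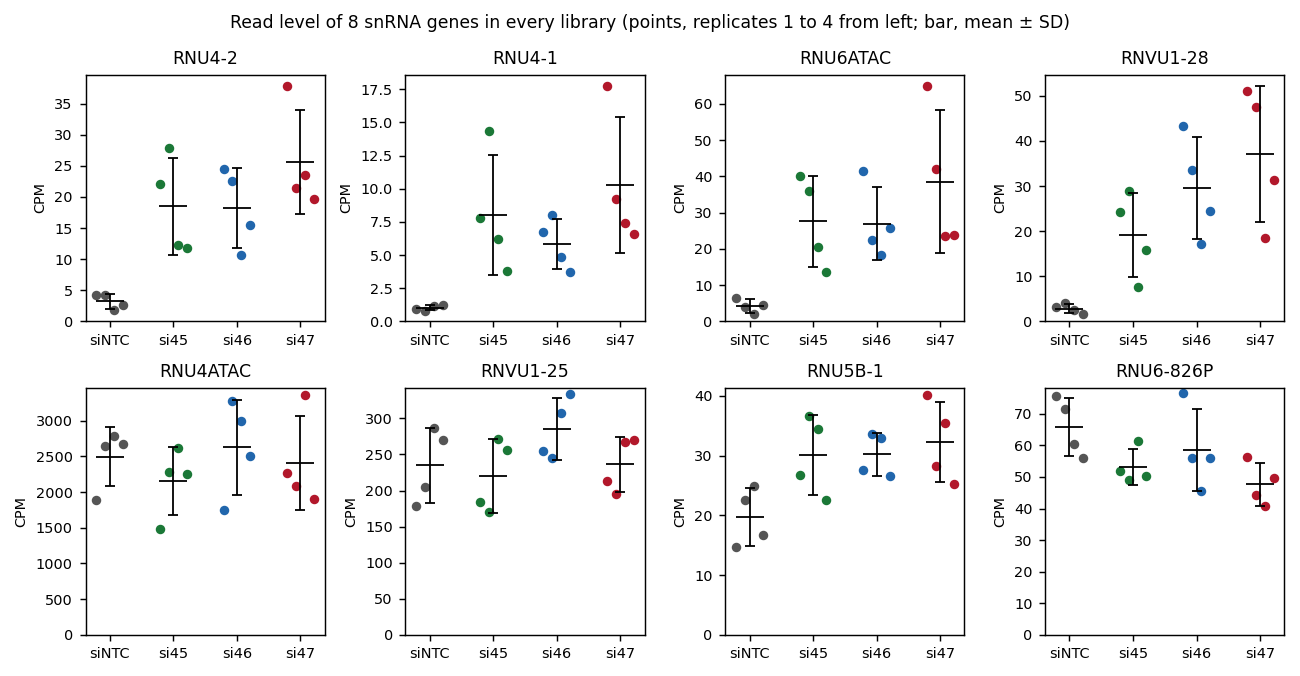
CPM (y axis, from 0) of 8 snRNA genes in each of the 16 libraries by group (x axis), with the mean ± SD of 4 libraries as a bar. RNU4-2, RNU4-1, RNU6ATAC and RNVU1-28 lie above all controls in all 12 knockdown libraries, while RNU4ATAC, RNVU1-25 and RNU6-826P overlap with siNTC.

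The U1 family, which recognises the start of introns, split by gene. Of its 18 tested members, 9 rose for the mean of the 3 siRNAs, 5 of 11 functional and 4 of 7 pseudogene copies, and 0 fell. The variant gene RNVU1-28 had 3.21, 4.07, 2.46 and 1.74 CPM in siNTC. It had 24.2, 28.9, 7.63 and 15.9 CPM with si45, 43.4, 33.5, 17.2 and 24.4 with si46, and 51.1, 47.5, 18.5 and 31.3 with si47. No knockdown library overlapped with siNTC, and the means were 6.68-fold, 10.3-fold and 12.9-fold the control mean (mean of the 3 siRNAs, log2 fold change 3.25, SE 0.48, edgeR adjusted p = 0.000998).

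RNVU1-31 had 2.25, 2.19, 3.78 and 5.55 CPM in siNTC. It had 12.3, 18.8, 7.28 and 8.32 CPM with si45, 19.9, 22.7, 8.08 and 16 with si46, and 27.4, 14.2, 14.4 and 16.8 with si47. All 12 knockdown libraries were higher than the controls (log2 fold change 2.16, SE 0.35, edgeR adjusted p = 0.000494). The other functional U1 copies that rose were low in siNTC, with means of 0.994 CPM for RNVU1-15, 0.609 for RNVU1-7 and 0.426 for RNVU1-6. On the log2 scale they rose by 2.03 (SE 0.40), 2.0 (SE 0.49) and 2.44 (SE 0.59) for the mean of the 3 siRNAs, with edgeR adjusted p = 0.00112, 0.00810 and 0.00701, and each was above all controls in 11 of 12 knockdown libraries. RNVU1-7 lost its call without siNTC replicate 2.

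The other tested functional U1 copies, among them RNVU1-25 with the most reads of the family, were not called for the mean of the 3 siRNAs in the fit without replicate numbers. RNVU1-25 had 178, 205, 287 and 270 CPM in siNTC, 184, 170, 271 and 257 with si45, 255, 245, 308 and 334 with si46, and 213, 195, 267 and 270 with si47. Its groups overlapped, with a log2 fold change of 0.07 (SE 0.16, edgeR adjusted p = 0.867). RNVU1-26, which shares a run of 107 bases with RNVU1-25, had 0.12 (SE 0.14, edgeR adjusted p = 0.712). RNVU1-2A had 0.25 (SE 0.17), RNVU1-30 had 0.26 (SE 0.20) and RNVU1-34 had -0.0024 (SE 0.35), with edgeR adjusted p = 0.455, 0.495 and 0.998. With the replicate number as a block, RNVU1-25, RNVU1-26 and RNVU1-2A were called higher against siNTC with si46 only. Their log2 fold changes there were 0.29, 0.37 and 0.50 (edgeR adjusted p = 0.0058, 0.013 and 0.035), where 7.56% of all genes were called. RNVU1-25 was also higher with si46 than with si45 by 0.39 (edgeR adjusted p = 0.0034). RNVU1-19 had 1.93 with a wide error (SE 0.81, edgeR adjusted p = 0.168) and fewer than 2 reads in 3 of 4 controls. Without siNTC replicate 2 it had 3.97 (edgeR adjusted p = 0.0241), and without a low-count filter 1.94 (edgeR adjusted p = 0.0157), so its call depended on that library and on the filter.

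Among U1 pseudogenes, RNU1-11P, in an intron of PHACTR1, had 0.378 to 1.25 CPM in siNTC and 2.05 to 9.28 CPM in the knockdown libraries, without overlap (log2 fold change 2.39, SE 0.45, edgeR adjusted p = 0.000751). Its host gene had -0.02 (SE 0.10). RNU1-67P, in an intron of SLC25A43, was above all controls in 10 of 12 knockdown libraries (log2 fold change 2.43, SE 0.55, edgeR adjusted p = 0.00430). RNU1-89P had 0, 1, 0 and 1 reads in siNTC, 5, 17, 3 and 5 with si45, 18, 9, 4 and 4 with si46, and 11, 22, 9 and 6 with si47. Its ratio of 113 reads in 12 knockdown libraries to 2 in the 4 controls was 18.4 after allowing for totals, with an exact 95% interval of 4.98 to 154 for counting error only. RNU1-16P, in an intron of DCUN1D2, did not pass the threshold, although 10 of 12 knockdown libraries were lower than every control (log2 fold change -0.48, SE 0.17, edgeR adjusted p = 0.0850).

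The U5 family aligns the exons for joining. RNU5B-1 had 14.8, 22.5, 25.0 and 16.6 CPM in siNTC, 26.7, 36.7, 34.5 and 22.5 with si45, 27.6, 33.6, 33.0 and 26.6 with si46, and 40.1, 28.3, 35.5 and 25.2 with si47. Of 12 knockdown libraries, 11 were above all controls, and the log2 fold change of 0.65 (SE 0.15, edgeR adjusted p = 0.00536) was the smallest among the 19 rises. The call was lost without siNTC replicate 1.

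RNU5A-1, a second functional U5 gene, had 0.321, 1.25, 0.946 and 0.347 CPM in siNTC and 0.946 to 5.35 CPM after knockdown (log2 fold change 2.09, SE 0.49, edgeR adjusted p = 0.00543). RNU5F-1 and the pseudogene RNU5A-8P did not pass (log2 fold changes 0.34 and 0.73, edgeR adjusted p = 0.587 and 0.397).

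The U6 family, whose RNA forms the catalytic centre with U2, has 1271 pseudogene copies here, and 4 of the 31 tested rose for the mean of the 3 siRNAs. RNU6-11P (chr7:123790605-123790711, minus strand) had 6.25, 4.38, 5.29 and 2.25 CPM in siNTC, 17.2, 21.4, 9.88 and 10.8 with si45, 32.4, 20.4, 11.1 and 14.2 with si46, and 46.7, 21.4, 16.5 and 13.0 with si47. The groups did not overlap (log2 fold change 2.08, SE 0.45, edgeR adjusted p = 0.0132), and the call was lost without siNTC replicate 2 or siNTC replicate 4. RNU6-37P has the same sequence as RNU6-11P, within an intron of KIF1B.

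RNU6-37P had 3.37, 3.91, 0.378 and 3.47 CPM in siNTC, 9.16, 7.34, 6.07 and 4.35 with si45, 7.34, 9.46, 5.55 and 6.52 with si46, and 13.7, 10.7, 6.72 and 8.13 with si47. It too rose without overlap (log2 fold change 1.46, SE 0.31, edgeR adjusted p = 0.00279), while KIF1B had -0.25 (SE 0.08, edgeR adjusted p = 0.0512). The only functional U6 gene tested, RNU6-8, overlapped between groups (log2 fold change 0.45, SE 0.45, edgeR adjusted p = 0.631).

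The U6 pseudogene with the most reads, RNU6-826P (chr17:49036352-49036455, plus strand, in an intron of IGF2BP1), was the 1 member that fell in the fit without replicate numbers. It fell in the comparison of si47. It had 75.7, 71.5, 60.3 and 56.0 CPM in siNTC, 51.9, 48.9, 61.4 and 50.3 with si45, 76.5, 56.0, 45.6 and 55.9 with si46, and 56.3, 44.3, 40.7 and 49.6 with si47. Of the si47 libraries, 1 was above the lowest control (log2 fold change -0.47, SE 0.14, edgeR adjusted p = 0.0238). The call was lost without siNTC replicate 1 or 2 or si47 replicate 2 or 3 (edgeR adjusted p = 0.0993, 0.0792, 0.0750 and 0.0679). For the mean of the 3 siRNAs RNU6-826P had -0.32 (SE 0.11, edgeR adjusted p = 0.0725), and it was called lower there without a low-count filter (edgeR adjusted p = 0.0361). Its host gene IGF2BP1 had a log2 fold change of -0.25 with si47 (edgeR adjusted p = 0.0241). The other U6 pseudogenes among the 10 pseudogene copies with the highest level, RNU6-1016P, RNU6-758P, RNU6-817P and RNU6-611P, had log2 fold changes of 0.25, -0.0051, -0.17 and -0.21, with edgeR adjusted p = 0.506, 0.996, 0.719 and 0.658.

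3 further pseudogenes rose and were singled out after their values were seen. RNU6-4P, which is identical to RNU6-1, had 3 reads in the 4 controls and 97 in the knockdown libraries, a ratio of 10.5 with an exact 95% interval of 3.5 to 52.0 for counting error only. RNU6-358P had a log2 fold change of 3.30 (SE 0.84, edgeR adjusted p = 0.0249) and RNU1-82P had 1.91 (SE 0.61, edgeR adjusted p = 0.0489). RNU1-82P lost its call without any 1 of 11 libraries and with either other low-count filter. RNU6-358P lost its call without any 1 siNTC library, and RNU6-4P without siNTC replicate 1, 3 or 4.

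Of 71 U2 and 149 U7 members, 3 of each were tested. In the fit without replicate numbers, none of these 6 passed the threshold under any siRNA. RNU2-63P, a U2 pseudogene, had 42.8, 49.6, 82.7 and 44.9 CPM in siNTC, 40.1, 39.5, 93.8 and 47.9 with si45, 39.0, 35.3, 89.2 and 41.9 with si46, and 27.4, 31.4, 59.3 and 32.2 with si47. Replicate 3 was the highest library in each of the 4 groups, with a log2 fold change of -0.21 (SE 0.32, edgeR adjusted p = 0.776). With the replicate number as a block, RNU2-63P had -0.57 with si47 against siNTC (SE 0.11, edgeR adjusted p = 0.000118), where 15.5% of all genes were called. Among the comparisons with siNTC, the block called it only there. RNU7-115P, the U7 copy with the most reads, had 0.31 (SE 0.18, edgeR adjusted p = 0.348). A row with the symbol U2 (ENSG00000278774), which is outside the rule because of its name, rose. Its siNTC libraries had 2.97 to 4.73 CPM and its knockdown libraries 6.62 to 58.5 CPM (log2 fold change 2.78, SE 0.68, edgeR adjusted p = 0.0276).

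Summed over each family, the U4 and U6atac levels were above all controls in 12 of 12 knockdown libraries and the U5 level in 11. The U4 sum was 2.88-fold, 3.08-fold and 4.24-fold the siNTC mean with si45, si46 and si47, and the U6atac sum 3.08-fold, 3.03-fold and 4.03-fold. The U1 sum was 1.03-fold, 1.38-fold and 1.23-fold, the U6 sum 1.01-fold, 1.18-fold and 1.07-fold, and the U4atac sum 0.865-fold, 1.05-fold and 0.963-fold. Over all functional copies the log2 ratio of knockdown to siNTC was 0.020, over all pseudogene copies 0.145, and over all members 0.035. Without RNU4ATAC, the functional copies gave 0.463 and 9 of 12 knockdown libraries lay above all controls. These sums were not tested.

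**Figure D3:**
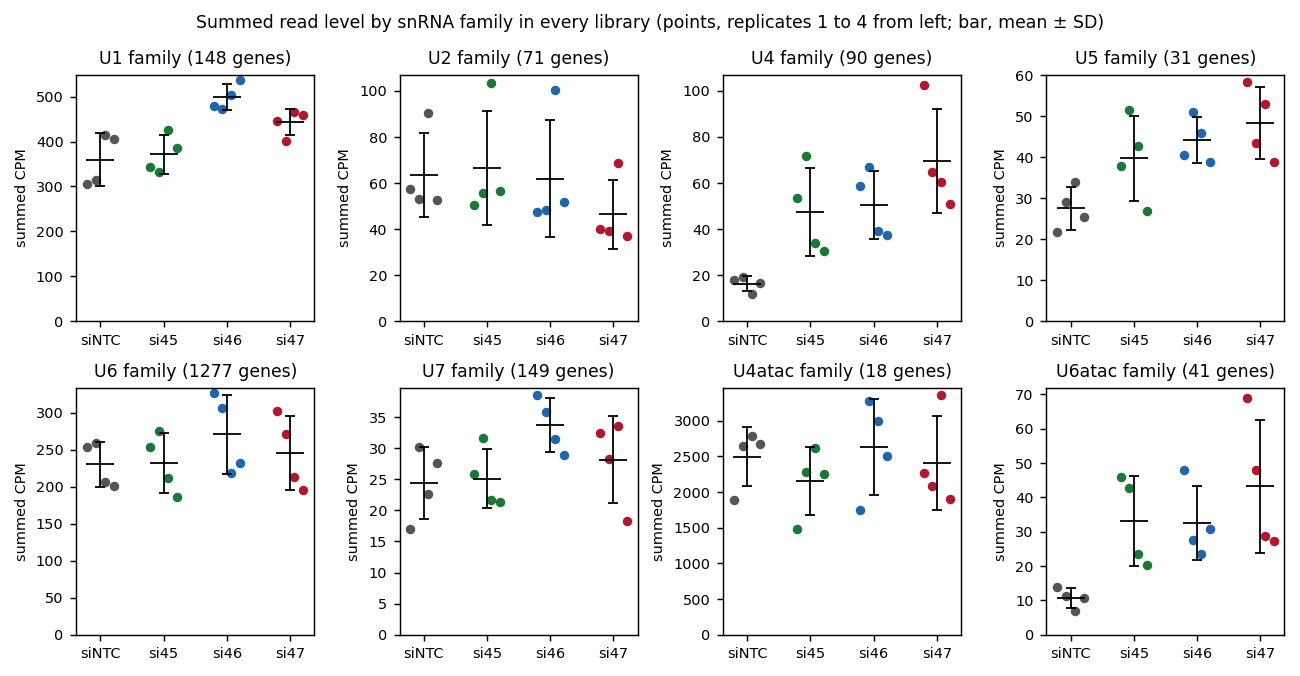
Summed CPM (y axis, from 0) of each snRNA family in the 16 libraries by group (x axis), with the mean ± SD of 4 libraries as a bar. The U4 and U6atac sums separate all knockdown libraries from siNTC, whereas the U2 sum is highest in replicate 3 of every group.

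Knockdown libraries also differed by replicate number. Of the 19 members that rose, all but RNVU1-7 and RNU6-4P were highest in replicate 1 or replicate 2 with each siRNA. RNVU1-7 was highest in replicate 4 with si46, and RNU6-4P in replicate 3 with si45. Set against the siNTC library of the same number, the mean of the 3 knockdown libraries for the U4 sum was 4.03-fold, 3.49-fold, 3.75-fold and 2.38-fold for replicates 1 to 4, and for RNU6ATAC 7.43-fold, 8.56-fold, 9.99-fold and 4.66-fold. For RNVU1-31 it was 8.83-fold, 8.48-fold, 2.63-fold and 2.47-fold. All of these ratios were above 1. Whether a replicate number marks a shared day is not given in the sources used here.

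The members that rose were mostly close to the family's reference gene in sequence, a property the choice of members did not use. Identity was the matched bases of a global alignment over the length of the longer sequence. The references were RNU1-1, RNU4-2, RNU5A-1, RNU6-1 and the single genes of the other families. Of the tested members, RNU4-2, RNU5A-1, RNU6ATAC and RNU4ATAC are themselves references, so their identity is 100% by construction. All of these but RNU4ATAC rose. Of the 18 tested members with 95% identity or more, 13 rose for the mean of the 3 siRNAs. The corresponding counts were 3 of 9 from 90% to under 95%, 1 of 25 from 80% to under 90%, and 2 of 16 under 80%. The median identity was 97.2% for the 19 members that rose and 84.5% for the 49 others. Many of these members passed the low-count filter only through the knockdown libraries where they are high, so the counts are a description. Among the 33 members that reached the filter level in all siNTC libraries, 5 of 6 rose at 95% or more. The 6 include the references RNU4-2 and RNU6ATAC, which rose, and RNU4ATAC, which was not called. In the lower bands 1 of 4 rose from 90% to under 95%, 0 of 11 from 80% to under 90% and 0 of 12 under 80%. Among pseudogene copies alone, 6 of 9 tested members at 95% or more rose, and 0 of 22 from 80% to under 90%.

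Members below 80% that rose held a stretch of a functional gene of their family. Such stretches were not compared across all members below 80%. RNU6-358P is short, and 69 of its 75 bases aligned to matching bases of RNU6-1. RNU4-82P has the run of 60 bases shared with RNU4-1 described above. At the other end, RNU4ATAC, RNU6-8, RNU6-33P, RNU1-27P and RNU2-59P had 95% identity or more and did not pass the threshold. RNU6-33P and RNU1-27P had log2 fold changes of 1.55 (SE 0.75) and 1.77 (SE 0.81), with edgeR adjusted p = 0.237 and 0.203. Whether reads of near-identical copies were counted for one or another was not tested, so members that rose may share reads.

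**Figure D4:**
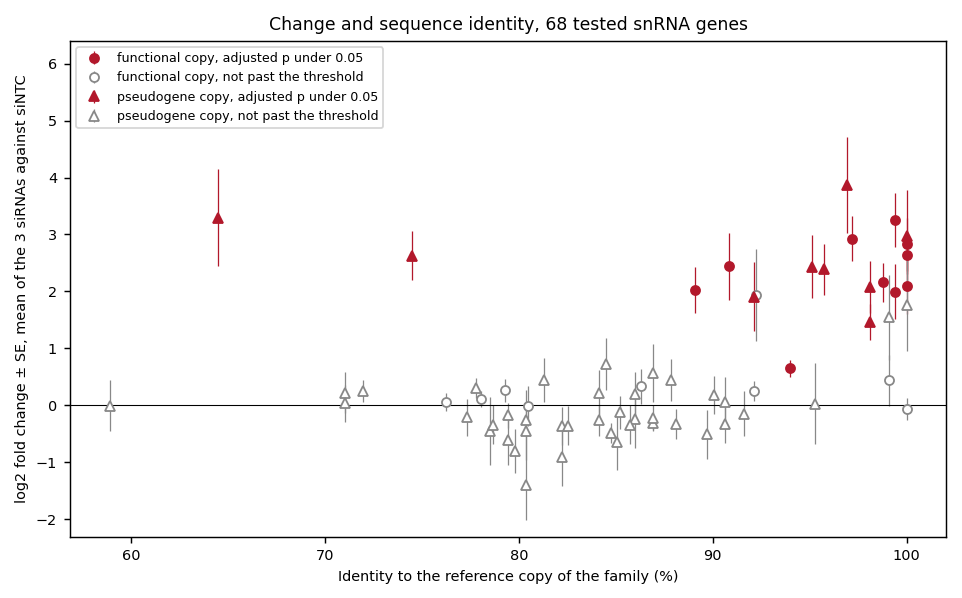
log2 fold change ± SE for the mean of the 3 siRNAs against siNTC (y axis) of the 68 tested snRNA genes by percent identity to the reference gene of the family (x axis), functional copies as circles and pseudogene copies as triangles, filled where the adjusted p was under 0.05. Of the 19 filled points, 13 lie at 95% or more, and RNU6-358P and RNU4-82P lie below 80%. The references RNU4-2, RNU5A-1, RNU6ATAC and RNU4ATAC lie at 100% by construction.

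Position in the genome varied with the call as well. Of the 37 tested members inside an intron of another gene on the same strand, 6 rose, and their median log2 fold change over all 37 was -0.21. Of the 23 tested members that overlap no other gene, 11 rose with a median of 1.77. Of the 8 on the opposite strand of a gene, 2 rose. As above, many members passed the low-count filter only through the knockdown libraries where they are high. The counts and medians by position are therefore a description. For 31 tested members the host gene on the same strand was itself tested. Of those members 3 rose, RNU6-37P, RNU1-11P and RNU4-82P, and 0 of the host genes was called in the mean of the 3 siRNAs. Identity and position overlap, since 13 of the 18 tested members with 95% identity or more lie outside genes on their strand, as do 6 of the 25 from 80% to under 90%. Within introns on the same strand, 4 of 5 tested members at 95% or more rose, and 0 of 19 from 80% to under 90%. The 4 were RNU6-37P, RNU1-11P, RNU1-67P and RNU6-4P, each below the filter level in at least 1 siNTC library.

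Differences between the siRNAs were not called for these genes in the fit without replicate numbers. No member passed the threshold for si46 against si45, si47 against si45 or si47 against si46, where 0.0282%, 0.169% and 0.0493% of all genes were called in either direction. At an unadjusted p under 0.05 there were 8, 9 and 8 of the 68 tested members, without the share of all genes at that level. The lowest p was that of RNVU1-15 for si47 against si45, with a log2 difference of 1.41 (SE 0.40, edgeR adjusted p = 0.123). Libraries with the same replicate number deviated together, with correlations from 0.0188 to 0.247 over the 6 pairs of groups. They were over 0.1 for every number only between si45 and si47. With the replicate number as a block, 3 members were higher and 1 lower with si47 than with si45, where 2.8% of all genes were called in either direction. RNVU1-28, RNVU1-15 and RNU1-67P were higher by 0.98, 1.46 and 1.78 on the log2 scale, and RNU2-63P had -0.53 (edgeR adjusted p = 5.15e-05, 0.0200, 0.0226 and 0.00249). For si46 against si45 the block called RNVU1-25 (0.39) and RNVU1-28 (0.67) higher (edgeR adjusted p = 0.0034 and 0.0361). For si47 against si46 it called RNU2-63P lower (-0.43, edgeR adjusted p = 0.0481). Of all genes, 0.233% and 0.761% were called there.

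Other small RNAs without a regular poly(A) tail are given beside these values, since their part in the result was not tested. Of 77 tested snoRNA and scaRNA genes, which guide RNA modification, 20 rose and 0 fell for the mean of the 3 siRNAs, a share of 26.0% beside 27.9% of the 68 tested snRNA members and 3.16% of protein-coding genes. Of 93 tested genes of the mixed class misc_RNA, 12 rose (12.9%) and 0 fell. The Y RNA genes RNY1 and RNY4 rose by 0.85 (SE 0.15) and 1.67 (SE 0.22) on the log2 scale, with edgeR adjusted p = 0.00149 and 3.27e-05, and RNY3 had 0.63 (SE 0.25, edgeR adjusted p = 0.134). RN7SL1, the RNA of the signal recognition particle, rose by 0.77 (SE 0.22, edgeR adjusted p = 0.0396), while its close copy RN7SL2 had 1.01 (SE 0.30, edgeR adjusted p = 0.0507), and RN7SK, RMRP and RPPH1 had no reads. The replication-dependent histone genes, which U7 helps to process, went the other way as a sum. They had 4269 to 5167 CPM in siNTC and 2257 to 4528 CPM after knockdown, with 11 of 12 knockdown libraries below all controls. Of the 41 tested histone genes, 8 rose and 6 fell.

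The protein-coding genes that make, process and bind snRNAs had few calls. Of 127 tested genes in 7 lists, 1 rose and 2 fell for the mean of the 3 siRNAs. Among all genes tested, 3.61% were called higher and 3.53% lower in that comparison. The median log2 fold change of the 127 genes was -0.00099, with values from -0.29 (SNAPC1) to 0.62 (INTS6). INTS6, a subunit of the Integrator complex, rose by 0.62 on the log2 scale (SE 0.15, edgeR adjusted p = 0.0198), and the other 14 Integrator genes tested did not pass. Among 13 genes of snRNA transcription, ICE2, a subunit of the little elongation complex, fell by 0.24 (SE 0.08, edgeR adjusted p = 0.0487), and SNAPC1 and BRF2, factors of snRNA promoters, had -0.29 and 0.45 (edgeR adjusted p = 0.101 and 0.265) for the mean of the 3 siRNAs.

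Of 27 genes for tailing, trimming and decay of snRNAs, the exosome subunit EXOSC9 fell by 0.28 (SE 0.08, edgeR adjusted p = 0.0308), and EXOSC2 had -0.26 (edgeR adjusted p = 0.0560). For the mean of the 3 siRNAs no call was made among 20 genes of snRNP assembly and transport, 17 Sm and LSm genes, 25 snRNP-specific proteins or 10 minor spliceosome proteins. The lowest p-values there were those of TGS1 (0.18), SNRPN (0.20), SNRPA (-0.22) and SNRNP48 (-0.18), given as log2 fold changes, with edgeR adjusted p = 0.216, 0.0943, 0.107 and 0.265. At an unadjusted p under 0.05 there were 3, 4, 1 and 0 genes in these 4 lists, without the share of all genes at that level.

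By single siRNA, 1.01% of all genes were called higher and 0.324% lower with si45, and 2.14% and 1.25% with si46. With si47 the shares were 4.91% and 4.83%. Of the 127 genes, 0 were called with si45 or si46, and 1 rose and 5 fell with si47. The 6 were INTS6, ICE2 and EXOSC9 as above, SNAPC1 (-0.43), EXOSC2 (-0.42) and SNRPD2 (-0.37), a core Sm protein, given as log2 fold changes with edgeR adjusted p = 0.0362, 0.00794 and 0.00463 for the last 3. The calls for the mean of the 3 siRNAs rested on single libraries, since the count was 0 without siNTC replicate 1 or siNTC replicate 3, 1 without siNTC replicate 4, si45 replicate 1 or si47 replicate 1, and 6 without si45 replicate 3.

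**Figure D5:**
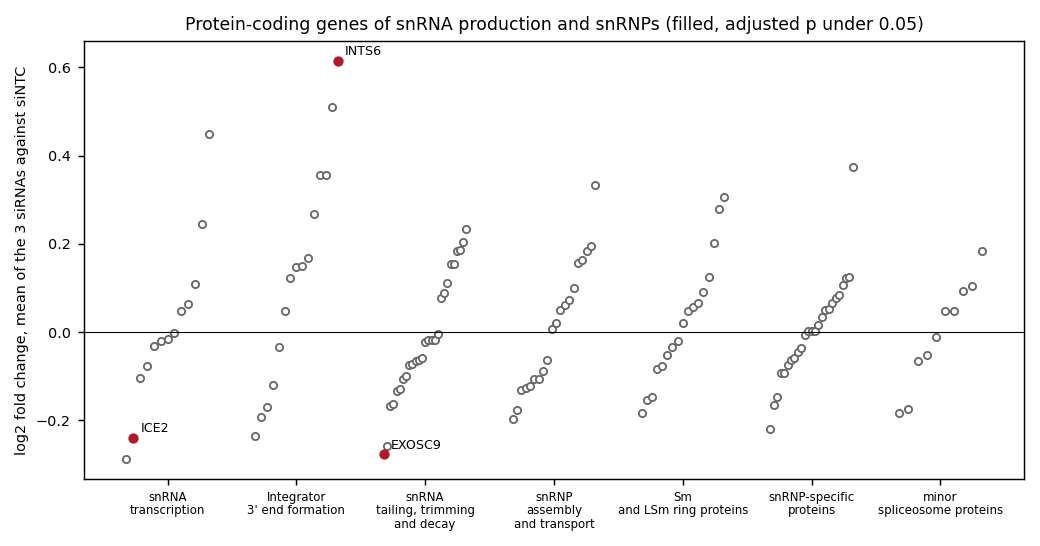
log2 fold change for the mean of the 3 siRNAs against siNTC (y axis) of 127 protein-coding genes in 7 lists of snRNA production and snRNP function (x axis), each list sorted by value. The 3 filled points, INTS6 above 0 and ICE2 and EXOSC9 below, passed an adjusted p of 0.05.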

How the data were processed

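RNA from 16 libraries of IMR32 cells, 4 each for si45, si46, si47 and siNTC, was profiled with a 3' end kit (QuantSeq) and 15 PCR cycles, per the labels. The authors deposited raw counts per Ensembl gene for 58787 genes, whole numbers that were not normalized. Per the submitters' processing notes, FastQC 0.11.7, STAR 2.7.2b, edgeR 3.36.0, limma 3.50.3 and GRCh38 were used, with no role stated. The counter, its annotation, its use of strand, reads that match several places and molecular identifiers are not given in the sources used here. Mitochondrial genes were not analysed here, so totals are without them.

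Symbols came from a gene name table (58434 identifiers matched), and gene types, positions and sequences from GENCODE v29 (58515 matched). Counts were fitted with edgeR 4.0.16 in R 4.3.3: filterByExpr (minimum count 10), TMM, robust quasi-likelihood fits with 1 mean for each of the 4 groups, and Benjamini-Hochberg adjustment over 14193 genes. The standard error is the log2 fold change divided by the square root of F. TPX2 was compared by an exact permutation test on log2(CPM + 1). Libraries of 1 group differed by more than sampling noise (chi-square per degree of freedom 4.36 to 9.8 over 24 pairs). Same-numbered libraries correlated over 0.1 in all 4 pairs only for si45 and si47 (r from 0.12). Fits that pair same-numbered libraries by a block are given too. This pairing comes from the data, not the labels. The fit was tested on simulated data. Sequence identity used Biopython 1.88.

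Named genes were TPX2, every tested functional copy, the top copy of each family at 0.5 CPM or more, the 10 pseudogene copies with the highest level, up to 15 called members, and 3 genes per protein list. The members and the lists were chosen with earlier results of these data known. Alternatives were other scalings, filters and thresholds, DESeq2 1.42.0, a replicate block, only the groups compared, leaving out each library and, chosen after seeing the data, the GENCODE v29 symbols. 1 marker gene of the lists and the U6 sequences are not reported here.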

Additional observations from a re-analysis of the deposited data

Results flagged for a closer look

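In groups of 4, a library was marked where its gap to the nearest other as a share of the group's range exceeded Dixon's 95% critical value. Of 156 groups examined, 11 were marked, and chance gives about 1 in 20 (7.8 here). RNU2-63P was highest in replicate 3 of all 4 groups. The gap was 0.830 of the range in siNTC (82.6 CPM, the others 42.8 to 49.6), 0.845 with si45 (93.8 CPM), 0.877 with si46 (89.2 CPM) and 0.849 with si47 (59.3 CPM).

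RNU4ATAC was low in siNTC replicate 1, at 1880 CPM (gap 0.848), and RNU6-37P was low in siNTC replicate 3, at 0.378 CPM (gap 0.846). RNU6-8 was low in si45 replicate 1, at 0.311 CPM (gap 0.893), and high in si47 replicate 1, at 4.87 CPM (gap 0.853). RNVU1-19 was high in siNTC replicate 2, at 1.72 CPM (gap 0.890). The functional copies without RNU4ATAC summed to 486 CPM in si45 replicate 3, beside 417 to 426 in the others (gap 0.870). TPX2 was highest in si45 replicate 3 within its group, at 121 CPM beside 79.4 to 85.1 (gap 0.862).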

How the results depend on the processing

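For the mean of the 3 siRNAs, between 15 and 20 members rose under other scalings, filters, a threshold of 0.01, DESeq2, GENCODE v29 symbols and leaving out each library. RLE factors, upper-quartile factors and DESeq2 kept all 19. At a threshold of 0.01, 2 members were called for si45 and 8 for si46, where 96 and 189 of all 14193 genes were called. For the mean of the 3 siRNAs 440 of all genes and 0 partner genes were called at that threshold. Leaving out each library gave 2 to 11 called members for si45, 10 to 18 for si46, 19 to 21 for si47, 15 to 20 for the mean and 0 to 6 partner genes. Without a low-count filter 1 member was called for si47 against si45, where 166 of all genes were called. Of 1188 values of named genes under these alternatives and the block below, 1137 kept their direction and call, 28 lost a call, 23 gained one and 0 reversed. ICE2 lost its call with upper-quartile factors (adjusted p = 0.0545) and without a filter (0.0949), and the cause was not tested.

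Apart from si45 with si47, same-numbered libraries of 2 groups did not all correlate over 0.1. Same-number correlations ran from 0.0188 to 0.247, and whether same-numbered libraries were paired is not given in the sources used here. The fit without replicate numbers takes no account of such a pairing. With the block, the SE of RNU6ATAC for the mean of the 3 siRNAs was 0.19, beside 0.46 without it. With the replicate block 13 members rose and 0 fell for si45, 22 rose and 0 fell for si46, and 22 rose and 3 fell for si47. The shares of all genes called in these comparisons were 4.07%, 7.56% and 15.5%. For the mean of the 3 siRNAs 21 rose and 3 fell (24 called), where 12.8% of all genes were called. The 3 were RNU1-16P (-0.48, adjusted p = 0.0393), RNU6-826P (-0.32, 0.0121) and RNU6-482P (-1.71, 0.0418), and RNVU1-19 was called higher (adjusted p = 0.0113). The block called 9 partner genes for the mean, and 2, 4 and 1 members for si46 against si45, si47 against si45 and si47 against si46. In these 3 comparisons between siRNAs, 0.233%, 2.8% and 0.761% of all genes were called. Of 48 comparisons of a library with the 4 of another group, 42 had the highest correlation with the library of the same number, a hint from the data and not the design.

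The summed log2 ratio of all members was 0.314 without RNU4ATAC and 0.434 without members inside a gene on the same strand, and that of the functional copies 0.463 and 0.470. TPX2 differences on the log2 scale ran from -1.98 to -1.78 (si45), -2.08 to -1.88 (si46) and -2.22 to -2.13 (si47) without each library, where 4 against 3 libraries allow no p below 0.0571. Low counts limit the members under 1 CPM in siNTC most.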
